A study of Mus musculus with 6 samples.

Results

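The red cell membrane and skeleton genes examined here are Sptb, Ank1, Epb42, Epb41, Slc4a1, Rhag, Add2 and Tmod1. They were found as the probe sets of the array whose gene symbol in GEO's platform annotation is one of these 8 names. That gave 8 probe sets of 7 genes, of 35557 probe sets in all: 1 each for Sptb, Ank1, Epb42, Slc4a1, Rhag and Add2, and 2 for Tmod1. No probe set is named Epb41 in that annotation, so Epb41 was not analysed here. All 8 probe sets passed the filter on dim signals (described with the processing) and were among the 16387 tested. The values come from Affymetrix Mouse Gene 1.0 ST arrays of yolk sac RNA at embryonic day 9.5, with 3 arrays from embryos homozygous for a gene-trap allele of Tnrc6a (GW182gt/gt) and 3 from wild-type littermates. Each yolk sac came from 1 embryo, and both genotype labels add "mixed" with no explanation. Tnrc6a encodes GW182, a partner of Argonaute in microRNA silencing, and the comparison asks which mRNAs differ when it is disrupted.

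The membrane of a red cell is held by a lattice of spectrin that lies on its inner face. Beta-spectrin (Sptb) is built into its long tetramers. Ankyrin-1 (Ank1) and protein 4.2 (Epb42) tie these to band 3 (Slc4a1), the chloride and bicarbonate exchanger, and the Rh-associated glycoprotein (Rhag) sits in the same membrane complex. The tetramers meet at short actin filaments, where protein 4.1 (Epb41) strengthens the spectrin-actin bond, beta-adducin (Add2) caps one filament end and tropomodulin-1 (Tmod1) the other. In the yolk sac at this stage the genes are known as products of primitive erythroblasts, the first red cells of the embryo, which mature in the circulation. In human, defects of several of them cause hereditary spherocytosis or elliptocytosis.

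The promoter windows of the 5 measured genes for which RefSeq's table (build GRCm38.p6) gave one are shown because these genes were lowest in the same array, described next, while lying on different chromosomes. Each window runs 5′ to 3′ on the gene's strand from 250 bases before the annotated start to 50 bases after it. Capitals mark 2 motifs searched on either strand: the GATA motif, spelled AGATAA and, as its other form, TGATAA, and the CACCC box, spelled CACCC. Factors of the GATA and Krüppel-like families are known to bind such letters in red cell genes.
Sptb (chr12:76710498-76710797, minus strand): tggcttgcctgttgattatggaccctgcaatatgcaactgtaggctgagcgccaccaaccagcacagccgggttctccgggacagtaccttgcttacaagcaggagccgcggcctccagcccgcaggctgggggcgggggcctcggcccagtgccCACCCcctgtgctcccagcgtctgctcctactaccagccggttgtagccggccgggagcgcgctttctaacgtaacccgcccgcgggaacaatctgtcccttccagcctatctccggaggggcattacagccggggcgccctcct
Epb42 (chr2:121036828-121037127, minus strand): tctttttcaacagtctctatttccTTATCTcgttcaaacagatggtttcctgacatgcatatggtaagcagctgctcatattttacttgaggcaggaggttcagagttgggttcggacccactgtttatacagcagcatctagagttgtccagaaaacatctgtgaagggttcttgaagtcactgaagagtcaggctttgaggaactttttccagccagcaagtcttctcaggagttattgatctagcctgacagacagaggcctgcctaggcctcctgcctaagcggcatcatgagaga
Rhag (chr17:40810899-40811198, plus strand): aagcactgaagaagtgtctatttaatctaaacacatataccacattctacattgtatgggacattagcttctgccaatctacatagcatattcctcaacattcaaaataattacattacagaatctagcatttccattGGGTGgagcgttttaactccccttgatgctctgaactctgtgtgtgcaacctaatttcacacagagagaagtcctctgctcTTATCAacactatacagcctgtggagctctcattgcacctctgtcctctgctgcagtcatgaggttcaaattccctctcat
Add2 (chr6:86028431-86028730, plus strand): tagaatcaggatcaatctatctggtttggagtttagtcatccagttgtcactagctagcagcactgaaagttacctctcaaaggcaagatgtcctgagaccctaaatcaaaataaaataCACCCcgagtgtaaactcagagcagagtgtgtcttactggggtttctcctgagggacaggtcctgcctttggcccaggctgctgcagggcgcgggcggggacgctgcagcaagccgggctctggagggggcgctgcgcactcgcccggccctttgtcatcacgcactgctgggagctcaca
Tmod1 (chr4:46038972-46039271, plus strand): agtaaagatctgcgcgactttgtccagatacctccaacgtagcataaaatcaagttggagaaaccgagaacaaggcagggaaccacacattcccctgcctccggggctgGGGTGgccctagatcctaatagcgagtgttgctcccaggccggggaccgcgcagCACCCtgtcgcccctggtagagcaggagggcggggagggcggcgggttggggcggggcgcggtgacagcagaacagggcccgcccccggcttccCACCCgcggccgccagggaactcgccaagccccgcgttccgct

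The window of Rhag held both motifs, that of Epb42 a GATA motif, and those of Sptb, Add2 and Tmod1 the CACCC box. In Rhag the GATA match begins at position -31 and the CACCC match at -112, counted from the annotated start on the printed strand, and in Epb42 the GATA match begins at -226. Tmod1 had 3 CACCC matches. The 3 windows of Epb41 held neither motif and are not shown. Over the 8 windows of these 6 genes, 2 held the GATA motif, 4 the CACCC box and 1 both, against 18.6%, 57.5% and 8.96% of all 32851 windows in the table. The counts lie close to those shares and do not set these genes apart. The matches are letters only, and a link between them and the array values was not tested. Which start red cells use at each gene was not measured, and no match in a window says nothing of more distant sites.

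Facts of the whole series that touch these genes are few. Array medians lay between 5.19 and 5.22 log2 units, and the median standard error of a genotype difference over the tested probe sets was 0.10 (95% interval of ± 0.24), a precision limited by the number of arrays. Tnrc6a read 7.81, 5.33 and 5.20 in mutants 1 to 3, against 8.40, 7.62 and 8.29 in wild types 1 to 3. The library labelled mutant 1 therefore lay among the wild types and goes against its label, so values are given with and without it. Where the trap lies relative to the array's probes is not stated. The tissue markers Afp and Ttr, products of visceral endoderm, read between 12.56 and 12.71 on the 6 arrays, and the embryonic globins Hbb-y and Hba-x between 12.27 and 13.11.

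No membrane or skeleton gene passed the test between genotypes, and their lower mean in the mutants came mostly from 1 array. In mutant 2 all 7 genes lay below every other array, at 0.80 log2 units (Tmod1, 1.74-fold) to 1.21 (Rhag, 2.31-fold) under the wild-type mean. In the library labelled mutant 1, 6 of the 7 lay within the wild-type range. In mutant 3, 3 genes lay below every wild type, 1 above and 3 within. Of those below, Slc4a1 (10.462) lay almost level with wild type 2 (10.463). The matching shares of all tested probe sets were not counted for the library labelled mutant 1 or mutant 3. The counts in those arrays are therefore given as description only. All 8 probe sets had a lower mean in the mutants, where 47.6% of the tested probe sets did, with differences between −0.54 and −0.076, and without mutant 2 this count was 5 of 8, where 45.9% of the tested probe sets did. Without the library labelled mutant 1 it was 8 of 8, with differences from −0.70 to −0.14, where 7598 of the 16387 tested probe sets were lower.

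**Figure D1:**
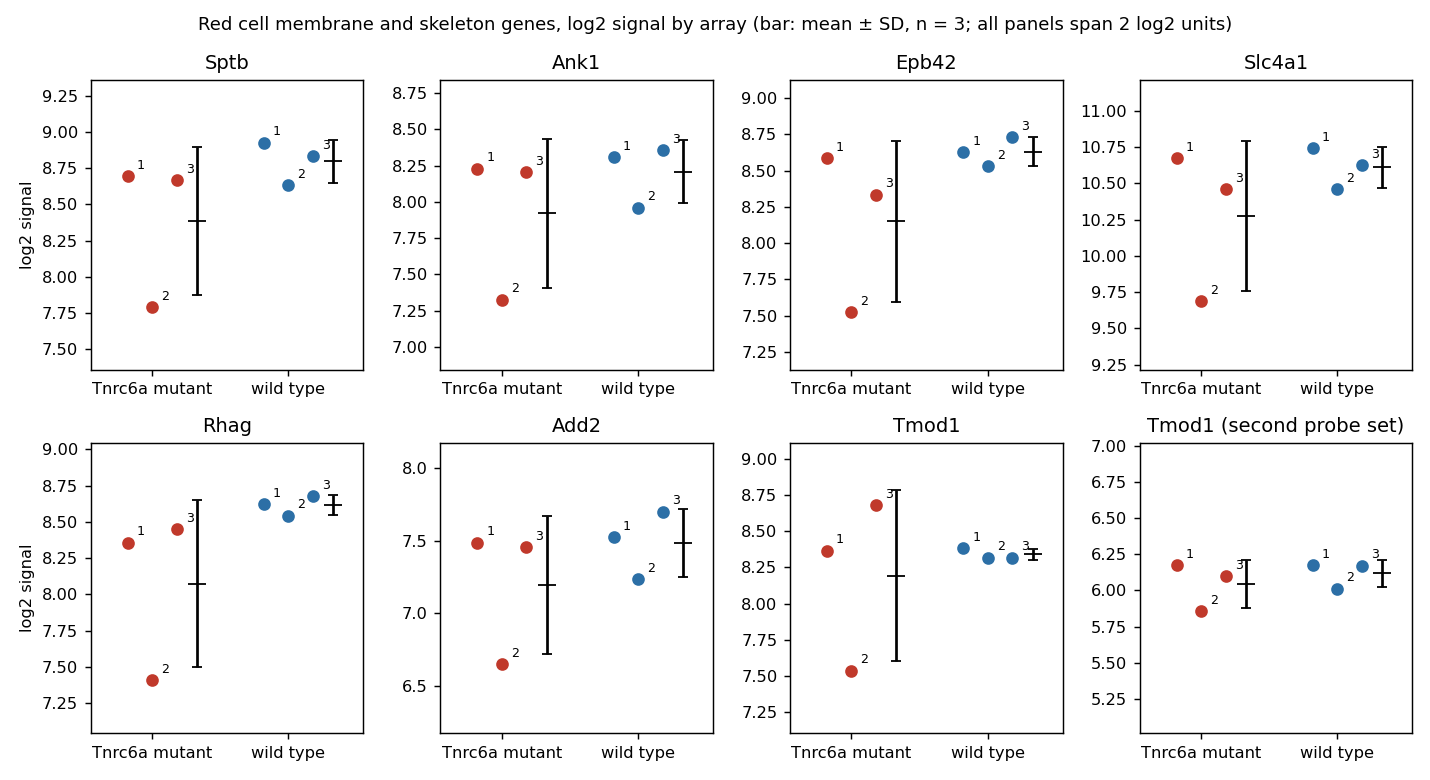
Log2 signal of each membrane and skeleton probe set on the 6 arrays, Tnrc6a mutants in red and wild types in blue, with the replicate number beside each point and bars for mean ± SD (n = 3 each). Mutant 2 is the lowest point in every panel, and 6 of the 7 brightest probe sets of a gene read lower in wild type 2 than in the other wild types, the exception being Tmod1.

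In the limma fit of the whole table, adjusted by the Benjamini-Hochberg method, 0 of the 8 probe sets had an adjusted p under 0.05 (0.999 for each), as was so for 0% of the tested probe sets. At an unadjusted p under 0.05 there were 0 of 8, against 1.28% of the tested probe sets that were lower at that p, and the methods' t-test also gave 0 of 8. Without the library labelled mutant 1 the limma count was 3 of 8 (Epb42, Rhag and Slc4a1), against 1.57% of the tested probe sets, and none of the 8 passed the adjusted threshold. The mutant and wild-type values did not overlap for 1 of the 8, Rhag, where 3.38% of the tested probe sets did not overlap in that direction. Mutant 2 was the lowest of the 6 arrays in 8 of the 8 probe sets, against 18.4% of the tested ones. It lay at least 0.5 below every other array for 7 of 8, against 0.421%. Both of these rules were chosen after the values had been seen. Because RNA of the whole yolk sac was measured, fewer red cells and less of these RNAs in each red cell cannot be told apart.

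Of the spectrin lattice, Sptb read 8.69, 7.79 and 8.67 in mutants 1 to 3, against 8.93, 8.63 and 8.83 in wild types 1 to 3. Mutants 1 and 3 lay close together and above wild type 2, so the groups overlapped. The means were 8.38 ± 0.51 in the mutants and 8.80 ± 0.15 in wild type (SD, n = 3 each), a difference of −0.41 (SE 0.24, 95% interval −0.96 to 0.14; limma p = 0.122, exact two-sided permutation p = 0.3). With 3 arrays against 3 the permutation test cannot give a p below 0.1. Without the library labelled mutant 1 the difference was −0.57, and without mutant 2 it was −0.12. Sptb was the gene closest to the mean pattern of the 7: its deviations differed from that mean by 0.044 (root mean square over the 6 arrays).

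Ank1, which links spectrin to band 3, read 8.23, 7.33 and 8.20 in mutants 1 to 3, against 8.31, 7.96 and 8.36 in wild types 1 to 3. The groups overlapped, since mutants 1 and 3 both lay above wild type 2. The difference was −0.29 (SE 0.25, 95% interval −0.86 to 0.29; limma p = 0.276, exact permutation p = 0.5), and it was −0.44 without the library labelled mutant 1 and 0.0080 without mutant 2. Its mutant values thus split into a pair beside the wild types and 1 array 1.84-fold below their mean.

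Epb42, a member of the transglutaminase family that has lost the enzyme activity, read 8.59, 7.53 and 8.34 in mutants 1 to 3, against 8.63, 8.53 and 8.73 in wild types 1 to 3. Mutant 3 as well as mutant 2 lay below every wild type, by 0.29 and 1.10 under their mean, while the library labelled mutant 1 lay among the wild types. The difference was −0.48 (SE 0.25, 95% interval −1.06 to 0.10; limma p = 0.0918, exact permutation p = 0.2). Without the library labelled mutant 1 it was −0.70, and without mutant 2 it was −0.17, with a limma adjusted p of 1.00 in both.

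Of the transport proteins, Slc4a1 read 10.67, 9.69 and 10.46 in mutants 1 to 3, against 10.74, 10.46 and 10.63 in wild types 1 to 3. The groups overlapped, with the library labelled mutant 1 second highest of the 6 arrays and mutant 3 level with wild type 2. The difference was −0.34 (SE 0.24, 95% interval −0.89 to 0.22; limma p = 0.196, exact permutation p = 0.4), and it was −0.54 without the library labelled mutant 1 and −0.044 without mutant 2.

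Rhag, whose protein is known to pass ammonia and to carry the Rh polypeptide to the membrane, had the largest difference of the 7 genes. It read 8.36, 7.41 and 8.45 in mutants 1 to 3, against 8.62, 8.54 and 8.68 in wild types 1 to 3. All 3 mutant arrays lay below all 3 wild types, though mutant 3 and wild type 2 lay close together. The means were 8.07 ± 0.58 in the mutants and 8.62 ± 0.067 in wild type (SD, n = 3 each), a difference of −0.54, or 1.46-fold lower (SE 0.25, 95% interval −1.14 to 0.052; limma p = 0.0682, adjusted p = 0.999, exact permutation p = 0.1). Without mutant 2 the difference was −0.21, and without the library labelled mutant 1 it was −0.68, with a limma adjusted p of 1.00 in both.

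Of the actin-capping proteins, Add2 read 7.49, 6.65 and 7.46 in mutants 1 to 3, against 7.52, 7.24 and 7.70 in wild types 1 to 3. Mutants 1 and 3 lay inside the wild-type range, which was the widest of the 7 genes at 0.47. The difference was −0.29 (SE 0.23, 95% interval −0.84 to 0.26; limma p = 0.254, exact permutation p = 0.5), and it was −0.44 without the library labelled mutant 1 and −0.016 without mutant 2.

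Tmod1 behaved least like the others. At its brighter probe set it read 8.36, 7.54 and 8.68 in mutants 1 to 3, against 8.38, 8.32 and 8.32 in wild types 1 to 3, so that mutant 3 was the highest and mutant 2 the lowest of the 6 arrays. The difference was −0.15 (SE 0.26, 95% interval −0.75 to 0.46; limma p = 0.591, exact permutation p = 0.9) and was −0.23 without the library labelled mutant 1, and it turned to 0.18 without mutant 2. The other probe set, annotated from a single cDNA record, read 6.17, 5.86 and 6.10 in mutants 1 to 3, against 6.17, 6.01 and 6.17 in wild types 1 to 3. There mutant 2 was again lowest, by 0.26 under the wild-type mean, and the difference was −0.076 (SE 0.11, limma p = 0.497, exact permutation p = 0.6), or −0.14 without the library labelled mutant 1 and 0.017 without mutant 2. The probe sets disagree on mutant 3, which the dimmer places within the wild-type range. Tropomodulin-1 is also known from heart and other muscle, so its RNA need not come from red cells alone.

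Among themselves the 7 genes stayed close in most arrays. Relative to each gene's wild-type mean they spanned 0.32 log2 units in the library labelled mutant 1 (mean −0.043), 0.40 in mutant 2 (mean −0.97) and 0.63 in mutant 3 (mean −0.062). In wild types 1 to 3 they spanned 0.13, 0.23 and 0.24, with means of 0.064, −0.14 and 0.079. The order within mutant 2, from furthest below the wild-type mean, was Rhag, Epb42, Sptb, Slc4a1, Ank1, Add2 and Tmod1. Neighbours in that order were 0.039 to 0.10 apart, against standard deviations of 0.038 to 0.23 among the wild types of these genes, and no test was made of the order. Wild type 2 was the lowest wild type for 6 of the 7 genes. The 8 named genes lie on 7 chromosomes, with Epb41 and Tmod1 both on chromosome 4 and none on chromosome 7, where Tnrc6a lies.

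Other red cell genes were also lowest in mutant 2, as for 21 of 22 genes of the erythroid reference described next, against 18.4% of the tested probe sets. Relative to the wild-type mean, 7 haem synthesis genes averaged −0.72 in mutant 2 (from −1.06 to −0.49), 7 transcription factor genes −0.64 (from −1.01 to −0.16) and 3 embryonic globin genes −0.43 (from −0.51 to −0.38), beside −0.97 for the membrane and skeleton genes (from −1.21 to −0.80). In the library labelled mutant 1 the 4 groups averaged −0.14, −0.0070, −0.13 and −0.043 in the same order, and in mutant 3 −0.11, 0.050, −0.061 and −0.062. No test was made of these differences between gene groups. The globin probe sets read 12.16 to 13.11, near the highest value in the table (13.7), and the membrane genes 6.65 to 10.74; the part that signal range has in the smaller globin difference was not tested.

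**Figure D2:**
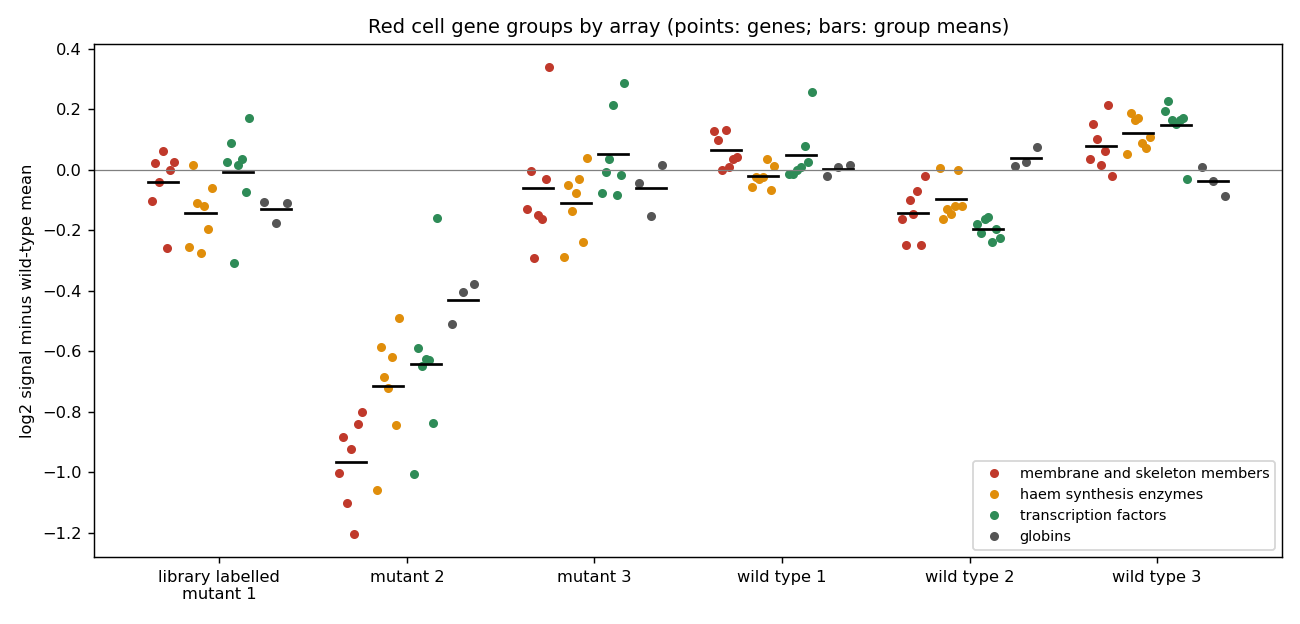
Log2 signal minus the gene's wild-type mean, by array, for membrane and skeleton genes (7), haem synthesis enzymes (7), transcription factors (7) and globins (3); points are genes and black bars group means. In mutant 2 the membrane and skeleton genes average −0.97 and the globins −0.43, while in the other 5 arrays all group means lie between −0.20 and 0.15.

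A reference of 22 other red cell genes, none of them a membrane or skeleton member, was used as a scale for red cell RNA in each array. It averaged −0.10, −0.70 and −0.053 in mutants 1 to 3 and 0.023, −0.12 and 0.094 in wild types 1 to 3, so mutant 2 was its lowest array and wild type 2 its lowest wild type, as for the members. Its summed linear signal was 31110, 23490 and 32090 in mutants 1 to 3, against 33690 to 34050 in wild type. That sum is weighted to the brightest genes of the reference, the embryonic globins. Whether cells other than red cells also express some reference genes was not measured. Rhag was set against the reference mean in the same array. It then read −0.16, −0.51 and −0.11 in mutants 1 to 3, against −0.014, 0.046 and −0.032 in wild types 1 to 3. Epb42 read 0.058, −0.41 and −0.24 in mutants 1 to 3, against −0.023, 0.017 and 0.0060 in wild types 1 to 3. Rhag and Epb42 lay lowest on this scale, with mean differences of −0.26 and −0.20. For Sptb, Slc4a1, Ank1 and Add2 the mean differences were −0.13, −0.053, −0.0060 and −0.0070. At the 2 probe sets of Tmod1 they were 0.14 and 0.21. With the reference as a covariate in the limma fit, the genotype differences ran from −0.11 for Rhag (95% interval −0.36 to 0.14) to 0.27 for Tmod1 (95% interval −0.066 to 0.61), and 3 of the 8 probe sets were lower in the mutants. The adjusted p was 1.00 for each.

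A marker of bordering tissue was high in the same arrays. Prl8a2, a prolactin-like hormone of decidua, read 3.51, 9.11 and 3.90 in mutants 1 to 3, against 4.09, 7.44 and 3.60 in wild types 1 to 3. It was thus high in mutant 2 and wild type 2, the arrays in which the membrane genes were lowest within each genotype. Prl4a1 and Hand1 were likewise highest in mutant 2 among the mutants and in wild type 2 among the wild types. In those arrays Prl4a1 read 5.139 and 7.130, and Hand1 7.615 and 7.533. Against the wild-type mean, Prl4a1 lay at −0.23 in mutant 2 and Hand1 at 0.43. Plac1 (at −0.32 there), Ascl2 (−0.33) and Syna (0.055) were not highest in mutant 2 among the mutants. The list median in mutant 2 was −0.086, and Plac1 was highest in mutant 3, at 9.10. Prl8a2, Prl4a1, Ascl2 and Syna were chosen after their values were seen. Of the 14 trophoblast and decidua genes listed, 10 had a probe set and 6 passed the dim filter. Their summed linear signal was 387, 998 and 793 in mutants 1 to 3, against 379, 944 and 365 in wild types 1 to 3. Such a sum follows its brightest gene, which was Prl8a2 (9.11) in mutant 2 and Plac1 (9.10) in mutant 3. The defining trophoblast markers Tpbpa, Psg17 and Ctsq lay below the dim filter. The mesenchyme and mesothelium list (13 of 13 genes tested) summed to 8215, 11310 and 9298 in mutants 1 to 3, against 7679, 12710 and 7574 in wild types 1 to 3. The brightest genes of these lists differed by 0.19 (SE 0.56) for Plac1, 0.23 (SE 0.16) for Hand1, 0.0040 (SE 0.25) for Col1a1 and 0.24 (SE 0.33) for Acta2. Hand1 and the mesenchyme and mesothelium genes may be expressed in the yolk sac itself, so their signals need not mark bordering tissue. The part of bordering tissue in the membrane gene signals was not tested.

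Other tissue lists had median deviations in mutant 2 of 0.23 for endothelium, 0.12 for visceral endoderm and −0.032 for macrophages, beside −0.92 for the membrane genes. Endothelial genes were higher in the mutants for 16 of 16, with a median of 0.23, where 8590 of the 16387 tested probe sets were higher. At an unadjusted p under 0.05 there were 4 of 16 higher, against 2.25% of the tested probe sets. That count was 9 of 16 without the library labelled mutant 1, 3 without mutant 2 and 2 without mutant 3. Of the 16387 tested probe sets, 456, 234 and 623 were higher at that p in the same settings. The median deviation of the 16 was 0.46 in mutant 3, where the membrane genes were near wild type, and 0.23 in mutant 2, and it was 0.014 in the library labelled mutant 1. The receptor genes Kdr and Tek differed by 0.40 (SE 0.13) and 0.29 (SE 0.10). Visceral endoderm genes were higher for 9 of 15 with a median of 0.0080, beside the 8590 of 16387 and a median of 0.0060 over all tested probe sets. Macrophage genes were lower for 6 of 7, where 47.6% of the tested probe sets were, with a median of −0.072. Of these, Cd68 lay at −0.25 (SE 0.21) and Mrc1 at 0.10 (SE 0.19). In each of these lists 0 genes passed the adjusted threshold.

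**Figure D3:**
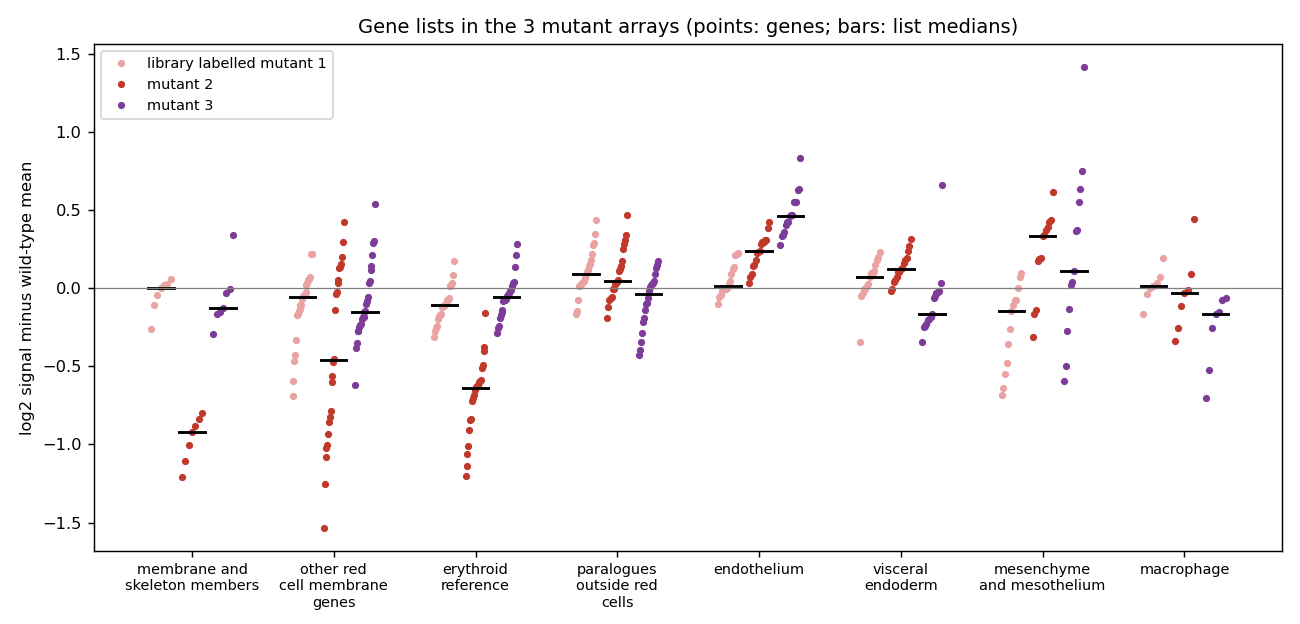
Log2 signal minus the wild-type mean in the library labelled mutant 1, mutant 2 and mutant 3, for the genes of 8 lists; points are genes and black bars list medians. In mutant 2 the median is −0.92 for the membrane and skeleton genes and −0.64 for the erythroid reference, against 0.048 for the paralogues and 0.23 for endothelium.

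The wider red cell membrane, from a list of 28 other genes, held 24 that were tested. Of these 17 were lower and 7 higher in the mutants, where 47.6% of the tested probe sets were lower. The median difference was −0.23, and 0 passed the adjusted threshold. At an unadjusted p under 0.05 there were 2 of 24 lower, against the 1.28% given above, and without the library labelled mutant 1 there were 8 of 24, against 1.57%. Without mutant 2 the median was −0.075 with 15 of 24 lower, where 45.9% of the tested probe sets were. Without the library labelled mutant 1 it was −0.32 with 18 of 24 lower, where 7598 of the 16387 tested probe sets were. Mutant 2 was the lowest array for 14 of the 24, against 18.4% of the tested probe sets.

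The 4 largest differences in that list were all on the lower side. Cldn13, a claudin gene, read 6.87, 5.76 and 7.05 in mutants 1 to 3, against 7.11, 7.11 and 7.67 in wild types 1 to 3. Its groups did not overlap, and the difference was −0.73 (SE 0.33, limma p = 0.0600, exact permutation p = 0.1). Rhd, which encodes the Rh polypeptide that Rhag accompanies, read 6.96, 6.39 and 7.41 in mutants 1 to 3, against 7.15, 7.92 and 7.88 in wild types 1 to 3. Here wild type 1 lay below mutant 3, and the difference was −0.73 (SE 0.29, limma p = 0.0395, adjusted p = 0.999, exact permutation p = 0.2). Slc29a1, the equilibrative nucleoside transporter, read 8.36, 7.67 and 8.31 in mutants 1 to 3, against 8.65, 8.79 and 8.64 in wild types 1 to 3. All mutants lay below all wild types, at a difference of −0.58 (SE 0.18, limma p = 0.0137, adjusted p = 0.999, exact permutation p = 0.1). Kel, the endopeptidase that carries the Kell blood group in human, differed by −0.47 (SE 0.23) and also did not overlap.

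Skeleton partners in the list were lower by less or not at all. Gypc, the glycophorin that protein 4.1 binds, differed by −0.28 (SE 0.21), and Dmtn, the actin-bundling dematin, by −0.19 (SE 0.14). Mpp1, which joins glycophorin C and protein 4.1, differed by −0.0010 (SE 0.096) and was not lowest in mutant 2. The genes on the higher side included widely expressed ones, such as Actb at 0.043 (SE 0.084), the mechanosensitive channel gene Piezo1 at 0.19 (SE 0.091) and Stom, which encodes stomatin, at 0.20 (SE 0.19). A dimmer probe set of Piezo1 differed by 0.23 (limma p = 0.0365, adjusted p = 0.999, exact permutation p = 0.1).

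Relatives of the members, listed as paralogues outside red cells, lay near their wild-type levels in mutant 2, with a median deviation of 0.048. Which cells express each listed paralogue was not measured, and red cells may express some, such as Add1 (0.042 in mutant 2). Of 25 such paralogues 20 were tested, 11 higher and 9 lower in the mutants, with a median difference of 0.018, and 0 passed the adjusted threshold. At an unadjusted p under 0.05 there were 2 of 20 higher, against 2.25% of the tested probe sets. Without the library labelled mutant 1 there were 0 of 20, against 2.78%, and without mutant 2 there were also 0 of 20. Mutant 2 was their lowest array for 3 of 20, close to the 18.4% of all tested probe sets, and lay above every wild type for 9 of 20, where 26.5% of the tested probe sets did. Without mutant 2 the split was 10 higher and 10 lower with a median of −0.0020, and without the library labelled mutant 1 it was 8 higher and 12 lower with a median of −0.028.

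Ank2, ankyrin-2, read 7.30, 7.33 and 6.91 in mutants 1 to 3, against 6.90, 6.84 and 6.85 in wild types 1 to 3. The groups did not overlap, although mutant 3 lay only 0.0090 above wild type 1, and the difference was 0.32 (SE 0.12, limma p = 0.0330, adjusted p = 0.999, exact permutation p = 0.1). Sptan1, a spectrin gene of other tissues, read 9.54, 9.66 and 9.49 in mutants 1 to 3, against 9.34, 9.40 and 9.21 in wild types 1 to 3. It too did not overlap, at 0.24 (SE 0.089, limma p = 0.0279, adjusted p = 0.999, exact permutation p = 0.1), where 5.17% of the tested probe sets did not overlap on the higher side. Epb41l3, a relative of Epb41, differed by 0.20 (SE 0.11) and Tgm2, an active transglutaminase, by −0.16 (SE 0.11). In mutant 2, Ank2 lay 0.47 above and Ank1 0.88 below their own wild-type means. Ank2 also lay 0.44 above its mean in the library labelled mutant 1, and 0.049 above it in mutant 3.

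**Figure D4:**
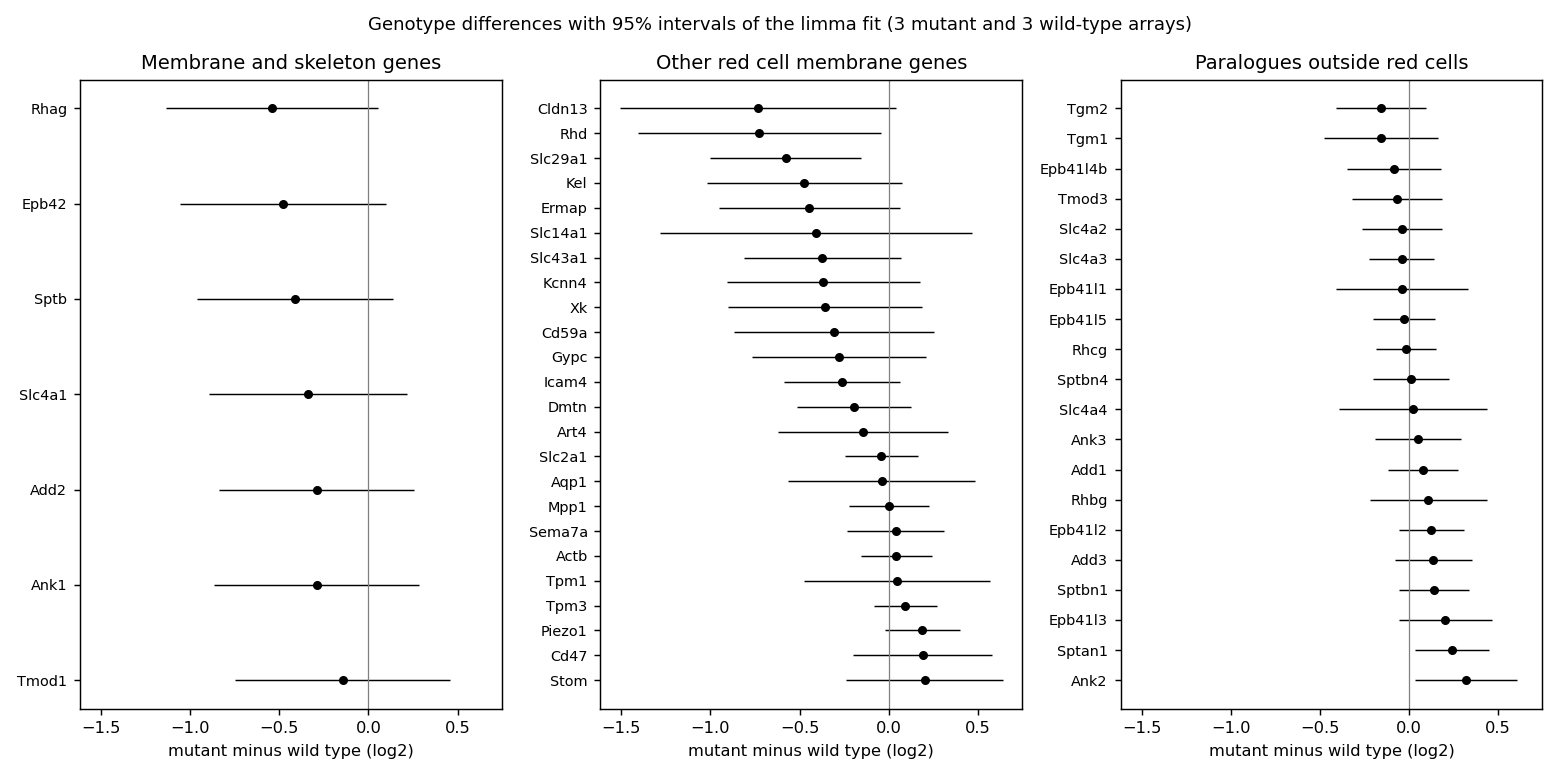
Difference in log2 signal, mutant minus wild type, with 95% intervals of the limma fit, for membrane and skeleton genes (7), other red cell membrane genes (24) and paralogues outside red cells (20), at the brightest probe set of each gene. The intervals of all 7 membrane and skeleton genes cross 0, and of the others those of Rhd and Slc29a1 lie below 0 and those of Sptan1 and Ank2 above it, before any adjustment for the number of tests.

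Genes most like the members were ranked by the root mean square distance, over the 6 arrays, between a gene's deviations from its own mean and the mean deviations of the 7 members. Among 14061 other genes the median distance was 0.378. The 10 nearest, from 0.047 to 0.087, were Kcnn4, Ell2, Gata1, Gfi1b, Smox, Samd14, Epor, Ermap, Kel and Slc6a9, of which 6 are in the lists of red cell genes used here. Kcnn4, the calcium-activated potassium channel of red cells, was nearest and read 8.03, 7.17 and 8.01 in mutants 1 to 3, against 8.14, 7.90 and 8.27 in wild types 1 to 3. Gata1, the master transcription factor of red cells, read 8.33, 7.29 and 8.23 in mutants 1 to 3, against 8.29, 8.12 and 8.50 in wild types 1 to 3. Epor, the erythropoietin receptor gene, lay 0.90 below its wild-type mean in mutant 2. Ell2, a transcription elongation factor gene outside these lists, lay 1.03 below its own. The members' own distances from their mean ran from 0.044 for Sptb to 0.158 for Tmod1.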

How the data were processed

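Total RNA of 6 yolk sacs was hybridised to Mouse Gene 1.0 ST arrays, per the labels' protocols, and groups were taken from the sample titles. The deposited table holds the authors' log2 signals of 35557 probe sets, used as deposited. MAS5 is the only tool in the submitters' processing notes; how background, summary and normalization were done is not stated there, and the log2 scale was read from the values (0.66 to 13.7). No 2 arrays were copies: at most 122 probe sets were identical. Symbols came from GEO's platform annotation, which lists 21789 probe sets with 1 symbol, 1621 with several and 12147 with none; chromosomes came from RefSeq genes of GRCm38.p6, and no build is named for the array.

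Named probe sets whose mean reached the 30th percentile (log2 4.29) were tested with limma 3.58.1 in R 4.3.3 (mutant minus wild type, no block, Benjamini-Hochberg over 16387 probe sets, threshold 0.05), and single genes also with exact permutation tests. The code was tested on simulated data. Lists are described by counts and medians at each gene's brightest probe set. The members and gene lists were chosen with earlier results of these data known. The groups of haem, globin and transcription factor genes are subsets of the erythroid reference chosen after seeing the data. Named beside the members were the 4 largest differences of each wider list and genes there with an unadjusted p under 0.05, the 10 most alike genes and the brightest markers; others named for context were chosen after their values were seen. Replicate numbers were not used to pair the samples in the main fit. Same-numbered arrays deviated together at r = 0.448, 0.146 and −0.107, and differently numbered ones at −0.452 to 0.236. With 3 arrays a group these values cannot decide whether the samples were paired, so a fit with a replicate block is given among the alternatives.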

Additional observations from a re-analysis of the deposited data

How the results depend on the processing

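Over 18 alternatives, the members' genotype differences kept their direction in 135 of 143 values and none passed the adjusted threshold (lowest adjusted p = 0.592); 10 had an unadjusted p under 0.05. Alternatives that alter only the filter, the variance estimate, the test or the replicate block leave each difference unchanged by construction. Part of the 135 values therefore repeat the main ones and could not have turned. Signs turned in 8 values. With the erythroid reference as a covariate the differences were 0.13 for Ank1, 0.047 for Slc4a1, 0.10 for Add2, and 0.27 and 0.057 for the probe sets of Tmod1, and 3 member probe sets were lower; the cause was not tested. Without mutant 2 they were 0.0080 for Ank1 and 0.18 and 0.017 for Tmod1. Leaving out 1 array, differences ran from −0.57 to −0.12 for Sptb, −0.44 to 0.0080 for Ank1, −0.70 to −0.17 for Epb42, −0.54 to −0.044 for Slc4a1, −0.73 to −0.21 for Rhag, −0.44 to −0.016 for Add2, −0.39 to 0.18 for Tmod1 and −0.14 to 0.017 at its other probe set, with 5 to 8 probe sets lower. The count of tested probe sets at an unadjusted p under 0.05 was 579 (627 by the methods' t-test). It was 1086 with array weights, 1173 when both wild type 2 and the library labelled mutant 1 were left out, and 395 (without mutant 2) to 1372 (without mutant 3) leaving out 1 array. The adjusted threshold was passed by 0 probe sets, and by 1 when those arrays were both left out. With the replicate block the count was 727 of 16387, of which 286 were lower in the mutants. In that limma fit 3 members, all lower, had an unadjusted p under 0.05. They were Sptb (0.0390), Epb42 (0.0478) and Rhag (0.0368), each with an adjusted p of 0.987. The precision is limited by 3 arrays a group. A limma p-value sets a difference against the spread between these embryos, which limma moderates with the spread of all tested probe sets.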
